A study of Mus musculus with 30 samples.

Results

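The genes that build, load and switch on MHC class II were followed through a 4 h treatment with interferon gamma (IFNG) in 5 clones of J774A.1, a mouse macrophage-like tumour line. The 10 genes, taken by symbol from a table of 54146 genes, were Ciita, Cd74, H2-Aa, H2-Ab1, H2-Eb1, H2-DMa, H2-DMb1, H2-DMb2, H2-Oa and H2-Ob, and each matched a single Ensembl identifier. The wild-type clones WT1, WT2 and WT3 were expanded from single cells without electroporation. In the clones KO1 and KO2, CRISPR had removed both copies of B2_Mm2.Dicer1, a SINE B2 element in the first intron of Dicer1. Each clone was left untreated (UT) or given 100 ng/mL mouse IFNG, with 3 mRNA libraries for each clone and treatment and 30 in all. Libraries of a clone are not independent edited lines, and nothing says whether they came from separate cultures, so p-values cover the spread between these libraries only.

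Counted fragments per library ranged from 15566122 to 37992642, with a median of 23682133.5. The treatment label was checked with Gbp2b, an IFNG-induced GTPase, which stood at 1.91 to 3.70 CPM (fragments scaled to library size) in UT libraries and 1076 to 1942 CPM in IFNG libraries. Dicer1 was lower in KO than in WT libraries, by a log2FC of -0.43 ± 0.11 (SE) untreated (edgeR quasi-likelihood test, FDR-adjusted p-value 0.00689) and -0.80 ± 0.09 with IFNG (adjusted p-value 1.4e-05), although an intronic deletion is not itself visible in exon counts. Both calls were lost with counts summed per clone (adjusted p-values 0.446 and 0.257), and the untreated one without KO1 (-0.18, adjusted p-value 0.179). All 7 macrophage markers examined reached 1 CPM, with a summed level of 3537 to 5934 CPM in UT libraries and 3449 to 5624 CPM in IFNG libraries. The summed level of 6 dendritic cell markers was at most 6.17 CPM, that of 4 B cell markers at most 0.380 CPM and that of 4 T cell markers at most 0.216 CPM. Of the dendritic cell markers, Zbtb46 stood at 1.87 to 5.45 CPM in UT libraries and 1.29 to 5.04 CPM in IFNG libraries. Itgax reached 1 CPM with IFNG only, at most 1.06 CPM. Cd8a, which marks cytotoxic T cells, was at 0 in every library.

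MHC class II molecules are surface receptors that show peptides from engulfed material to CD4+ T cells. In most cells other than professional antigen-presenting cells they are off until IFNG acts: signalling through the receptor and its JAK kinases induces IRF1 and other factors that switch on Ciita, and the CIITA protein then works as a coactivator at class II promoters without binding DNA itself. It is held there by factors that sit on a conserved X box (the RFX complex and CREB) and Y box (NF-Y), so class II chains are late genes of the IFNG response and Ciita is the step before them. H2-Aa and H2-Ab1 encode the alpha and beta chains of I-A, and H2-Eb1 the beta chain of I-E. Cd74 encodes the invariant chain, which occupies the groove and is cut by endosomal proteases. H2-DMa pairs with the products of H2-DMb1 or H2-DMb2 to catalyse peptide exchange, and H2-Oa with H2-Ob forms an inhibitor of that exchange.

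The promoter boxes through which CIITA acts are printed for 6 of the genes, since the level of Ciita and that of its targets are set side by side below. RefSeq promoter windows on build GRCm38.p6 were found for 7 of the 10 genes, and none was at hand for Ciita, Cd74 and H2-Ab1. Each stretch is 95 bases long, 5′ to 3′ on the strand of the gene, ending 31 bases before the RefSeq start (base -31), and capitals mark the Y box core TGATTGG, the part AACNNATG of the X box and the cyclic AMP response element TGACGTCA.
H2-Aa: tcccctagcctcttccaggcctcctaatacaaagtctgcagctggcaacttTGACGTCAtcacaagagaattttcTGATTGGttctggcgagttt
H2-Eb1: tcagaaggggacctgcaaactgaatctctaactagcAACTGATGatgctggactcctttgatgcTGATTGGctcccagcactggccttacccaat
H2-DMb1: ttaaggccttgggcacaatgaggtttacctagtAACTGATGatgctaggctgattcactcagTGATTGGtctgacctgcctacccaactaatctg
H2-DMb2: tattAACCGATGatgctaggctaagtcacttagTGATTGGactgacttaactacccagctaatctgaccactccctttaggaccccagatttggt
H2-Oa: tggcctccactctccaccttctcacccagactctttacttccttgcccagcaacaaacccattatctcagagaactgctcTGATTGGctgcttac
H2-Ob: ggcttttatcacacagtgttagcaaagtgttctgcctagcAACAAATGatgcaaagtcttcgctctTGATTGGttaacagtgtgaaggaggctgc
These stretches lie at chr17:34287854-34287948 on the minus strand for H2-Aa, and on the plus strand at chr17:34305742-34305836 for H2-Eb1, chr17:34153066-34153160 for H2-DMb1, chr17:34145124-34145218 for H2-DMb2, chr17:34092254-34092348 for H2-Oa and chr17:34238780-34238874 for H2-Ob. The Y box core was present in all 6, first base -92 to -45, and 4 of them held the X box part upstream of it, with 26 to 29 bases between the first bases of the 2 motifs. H2-Aa held the cyclic AMP response element at -74 and no match to AACNNATG, and of these motifs H2-Oa held only the Y box core. A missing match to these letters does not show that a promoter lacks an X box. Neither RefSeq window of H2-DMa held any of these letters, but these windows start 12350 and 9664 bases from the start of the gene in the count table, and that of H2-DMb2 starts 1942 bases from it. The motifs were chosen after these promoters had been read, both strands were searched, and no motif overlapped another. Among all 32851 promoter windows of 300 bases, 7.82% held TGATTGG, 8.86% AACNNATG and 1.79% TGACGTCA. The gamma-activated sequence TTCNNNGAA (8.3% of all windows) occurred in 1 of the 7 genes with a window, H2-DMb2, at -218, and the interferon regulatory factor element (3.44% of all windows) in none.

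Ciita, the class II transactivator, lies on chromosome 16 (mm10, chr16:10480059-10528418, plus strand) and was close to the detection limit in every library. Untreated libraries held 0, 0 and 0 fragments in WT1, 1, 0 and 0 in WT2, 1, 3 and 3 in WT3, 4, 1 and 3 in KO1, and 1, 1 and 1 in KO2. After 4 h of IFNG the libraries held 3, 0 and 0 fragments in WT1, 2, 0 and 3 in WT2, 6, 5 and 3 in WT3, 9, 6 and 10 in KO1, and 7, 9 and 8 in KO2. The treated libraries of WT3, KO1 and KO2 all lay above the untreated libraries of the same clone in CPM, whereas those of WT1 and WT2 overlapped them. At least 1 fragment was found in 10 of 15 untreated and 12 of 15 treated libraries. Dexi overlaps Ciita by 329 bases on the other strand, and the counting used strand.

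Summed over the 15 libraries of each treatment, Ciita rose from 19 to 71 fragments, from 0.0506 to 0.214 CPM, a ratio of 4.23. The mean CPM was higher after IFNG in 5 of 5 clones. An exact permutation test of the treatment labels within clones, over 3200000 splits and two-sided, gave p = 3.75e-05, where the smallest p it allows is 6.25e-07. Leaving out each clone in turn gave an exact p of 7.5e-05 to 0.00075. Among the WT clones alone the exact p was 0.015, and among the KO clones alone it was 0.005, the smallest that 400 splits allow. This test was chosen after the counts had been seen, because Ciita fell under the count filter of every comparison fitted across genes.

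In single clones the rise of Ciita was measured with wide error. Mean CPM was 0 untreated and 0.0487 ± 0.0844 (SD, n = 3) treated in WT1. The 2 means were 0.0173 ± 0.0301 and 0.102 ± 0.0958 for WT2, then 0.110 ± 0.0674 and 0.235 ± 0.0530 for WT3. They were 0.107 ± 0.0635 and 0.362 ± 0.0713 for KO1, and 0.0349 ± 0.00151 and 0.292 ± 0.105 for KO2. The order after treatment was thus WT1, WT2, WT3, KO2 and KO1, but in each neighbouring pair of this order the libraries overlapped. The ratio of summed fragments was 3.41 (95% counting interval 1.49 to 8.74) in KO1 and 7.77 (2.36 to 40.3) in KO2. It was 2.35 (0.889 to 6.89) in WT3 and 5.99 (0.670 to 283) in WT2, and both of these intervals include 1. In WT1, 3 fragments after IFNG stood against none before, and the lower end of the interval was 0.536. These intervals cover counting error only.

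Without the count filter, the edgeR fit over the 5 clones gave Ciita a log2FC of 2.24 ± 0.51 (SE) with an adjusted p-value of 5.95e-05. The same setting gave 1.73 ± 0.62 in KO1 (adjusted p-value 0.0324) and 2.84 ± 0.78 in KO2 (adjusted p-value 0.00237), and adjusted p-values of 0.332 to 0.376 in the WT clones. A response past the threshold in KO clones and not in WT clones is not a difference between them. The test of that difference, the interaction of genotype and IFNG, gave 0.54 ± 0.97 with an adjusted p-value of 1.

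**Figure D1:**
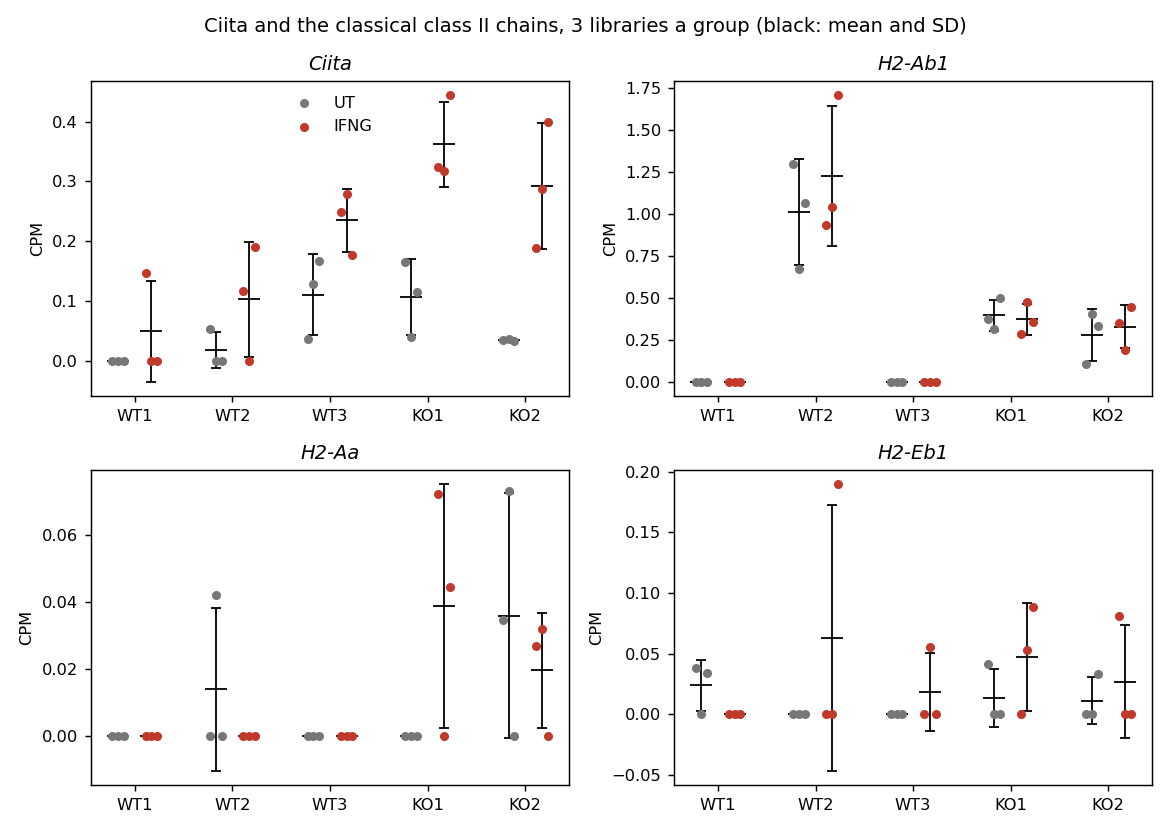
CPM of Ciita and the classical class II chains H2-Ab1, H2-Aa and H2-Eb1 in each of 3 libraries per clone and treatment (grey UT, red IFNG), with mean and SD as black bars on linear axes. Ciita lay above its untreated libraries after IFNG in WT3, KO1 and KO2, H2-Ab1 was at 0 in WT1 and WT3 under both treatments, and H2-Aa and H2-Eb1 never exceeded 3 fragments.

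The classical chains, whose transcription needs CIITA, were barely detected and did not rise measurably at 4 h. H2-Aa (chr17:34282744-34287827, minus strand) was counted at 0 to 2 fragments per library, 4 in all untreated and 5 in all treated libraries. It was seen in WT2 without IFNG, in KO1 with IFNG and in KO2 under both treatments, and was at 0 in every library of WT1 and WT3. H2-Eb1 (chr17:34305877-34316199, plus strand) was counted at 0 to 3 fragments, 4 in all untreated and 10 in all treated libraries. The exact permutation test within clones gave p = 0.915 for H2-Aa and p = 0.1865 for H2-Eb1, so no change was detectable at this depth. For a group at 0 in all 3 libraries, a limit of 3 fragments corresponds to 0.0350 CPM in untreated WT1 and 0.0610 CPM in treated WT2.

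H2-Ab1 (chr17:34263209-34269418, plus strand) split the clones but not the treatments. No fragment was counted in any of the 12 libraries of WT1 and WT3. WT2 held 25, 16 and 17 fragments untreated and 16, 17 and 27 after IFNG, KO1 held 9, 8 and 13 and then 8, 9 and 8, and KO2 held 3, 11 and 10 and then 13, 6 and 9. The untreated and treated libraries of WT2, KO1 and KO2 overlapped, and the totals of 112 untreated and 113 treated fragments gave p = 0.49925 in the exact permutation test within clones. In WT2, where H2-Ab1 passed the count filter, the log2FC with IFNG was 0.32 ± 0.31 (adjusted p-value 0.489).

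The clones differed in H2-Ab1 far beyond the spread between libraries, with adjusted p-values of 8.41e-07 untreated and 1.20e-06 with IFNG (edgeR, test on 5 clones). Pooled CPM (fragments summed over a group) in untreated WT2 was 28.2-fold the limit of 3 fragments in WT1 and 22.8-fold that in WT3. In untreated KO1 it was 11.4-fold and 9.21-fold the limits of WT1 and WT3, and in untreated KO2 7.98-fold and 6.47-fold. After IFNG these ratios were 26.9 and 24.04 for WT2, 7.96 and 7.12 for KO1, and 6.97 and 6.23 for KO2. The ratios leave out the counting error of the higher clone and are not lower bounds. Untreated, the counting interval of pooled CPM began at 0.748 in WT2, 0.268 in KO1 and 0.179 in KO2. It ended at 0.0430 in WT1 and 0.0531 in WT3. Mean Ciita was 0.110 CPM in WT3 and 0.0173 CPM in WT2 untreated, and 0.235 and 0.102 CPM with IFNG, while H2-Ab1 was at 0 in WT3. The Ciita libraries of WT2 and WT3 overlapped under both treatments, and whether H2-Ab1 follows Ciita across clones was not tested. J774A.1 derives from BALB/c mice, whose class II haplotype differs from that of the reference genome, and the part of this in the low counts of these polymorphic chains was not tested. In bulk libraries, fewer cells with a transcript cannot be told apart from less transcript per cell.

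Cd74, on chromosome 18, was by far the most abundant of the 10 genes and was already high without IFNG. Untreated libraries stood at 417, 373 and 412 CPM in WT1, 137, 128 and 141 in WT2, 126, 117 and 141 in WT3, 342, 307 and 357 in KO1, and 306, 332 and 309 in KO2. With IFNG they stood at 395, 354 and 507 CPM in WT1, 145, 145 and 161 in WT2, 138, 114 and 124.8 in WT3, 324, 345 and 468 in KO1, and 364, 321 and 358 in KO2. WT2 was the clone in which every treated library exceeded every untreated one, whereas the treatments overlapped in the other 4. WT1, KO1 and KO2 lay apart from WT2 and WT3 under both treatments. Mir5107 overlaps Cd74 by 12 bases on the same strand, and fragments over both were counted for each.

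Cd74 rose in WT2 by a log2FC of 0.17 ± 0.05 (adjusted p-value 0.00621), from 135 ± 6.42 to 150 ± 9.22 CPM (SD, n = 3). The call was lost without UT library 2 of WT2 (adjusted p-value 0.0610) and in a single fit over all 30 libraries (adjusted p-value 0.361). Over the 5 clones the log2FC was 0.10 ± 0.05 (adjusted p-value 0.0753), and the 95% interval ran from 0.0079 to 0.20. This value passed the threshold without the count filter (0.09, adjusted p-value 0.000333), with counts summed per clone (0.11, adjusted p-value 0.00782), and without WT1 or without WT3 (adjusted p-values 0.0431 and 0.0449). The mean was higher after IFNG in WT1, WT2, KO1 and KO2 and lower in WT3.

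H2-DMa, the alpha chain of the peptide exchange catalyst (chr17:34135182-34139101, plus strand), was the gene of the 10 that passed the threshold over the 5 clones, and it was lower. Untreated libraries held 114, 154 and 152 fragments in WT1, 60, 70 and 45 in WT2, 66, 63 and 44 in WT3, 89, 86 and 88 in KO1, and 95, 106 and 105 in KO2. Treated libraries held 94, 72 and 133 fragments in WT1, 38, 37 and 28 in WT2, 46, 48 and 38 in WT3, 77, 52 and 68 in KO1, and 95, 121 and 78 in KO2. On the CPM scale the treatments did not overlap in WT2, which fell from 2.97 ± 0.148 to 2.09 ± 0.276 (SD, n = 3), or in KO1, which stood at 3.49 ± 0.171 and 2.85 ± 0.1495. The other 3 clones overlapped. The mean was lower with IFNG in 5 of 5 clones, and the log2FC over them was -0.23 ± 0.07 (adjusted p-value 0.0102). Without WT2 it was -0.16 (adjusted p-value 0.116). Within WT2 it was -0.49 ± 0.18 (adjusted p-value 0.0401), and this call was lost when any 1 of the 6 libraries was left out (adjusted p-values 0.0523 to 0.156).

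The genes for the beta chain, H2-DMb1 (chr17:34153072-34160230) and H2-DMb2 (chr17:34143307-34151553, both on the plus strand), stand side by side and are close copies. They share 179 stretches of 100 bases in their transcripts, 11.3% of those of H2-DMb1 and 10.3% of those of H2-DMb2, and only uniquely aligned fragments were counted. How many fragments lay wholly within shared sequence was not tested, and the split of counts between the pair is uncertain. H2-DMb1 was counted at 2 to 13 fragments untreated and 1 to 10 after IFNG, 98 and 62 in all. Its mean was lower after IFNG in 5 of 5 clones, and the exact permutation test within clones gave p = 0.0199. The exact p was 0.0589 without WT1, 0.0538 without KO1 and 0.0994 without KO2, and among the WT clones alone it was 0.265. The edgeR fit without the count filter gave -0.42 ± 0.27 with an adjusted p-value of 0.321. H2-DMb2 was counted at 9 to 42 fragments and its log2FC over the 5 clones was -0.14 ± 0.12 (adjusted p-value 0.321), with a 95% interval of -0.37 to 0.09.

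H2-Oa (chr17:34092340-34095234, plus strand) marked WT1 and H2-Ob (chr17:34238903-34245907, plus strand) marked WT2 and WT3. H2-Oa libraries of WT1 stood at 6.25, 5.62 and 5.87 CPM untreated and 5.26, 5.53 and 7.68 CPM with IFNG. In the other 4 clones H2-Oa ranged from 0.739 to 2.34 CPM over both treatments, with KO1 lowest at a mean of 1.05 ± 0.147 CPM untreated. H2-Ob libraries of WT2 stood at 1.82, 1.22 and 1.82 CPM untreated, and those of WT3 at 2.02, 2.23 and 2.17 CPM. The mean of H2-Ob was 0.364 ± 0.0584 CPM in WT1, 0.370 ± 0.0803 in KO1 and 0.327 ± 0.0906 in KO2 untreated, and no library of these clones reached one of WT2 or WT3. The 2 genes encode partner chains, and no clone was high in both.

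Neither H2-O gene passed the threshold for IFNG. The log2FC over the 5 clones was -0.10 ± 0.10 for H2-Oa (adjusted p-value 0.428, 95% interval -0.28 to 0.09) and 0.04 ± 0.14 for H2-Ob (adjusted p-value 0.855, 95% interval -0.24 to 0.31). BC051537 overlaps H2-Oa by 200 bases on the other strand.

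**Figure D2:**
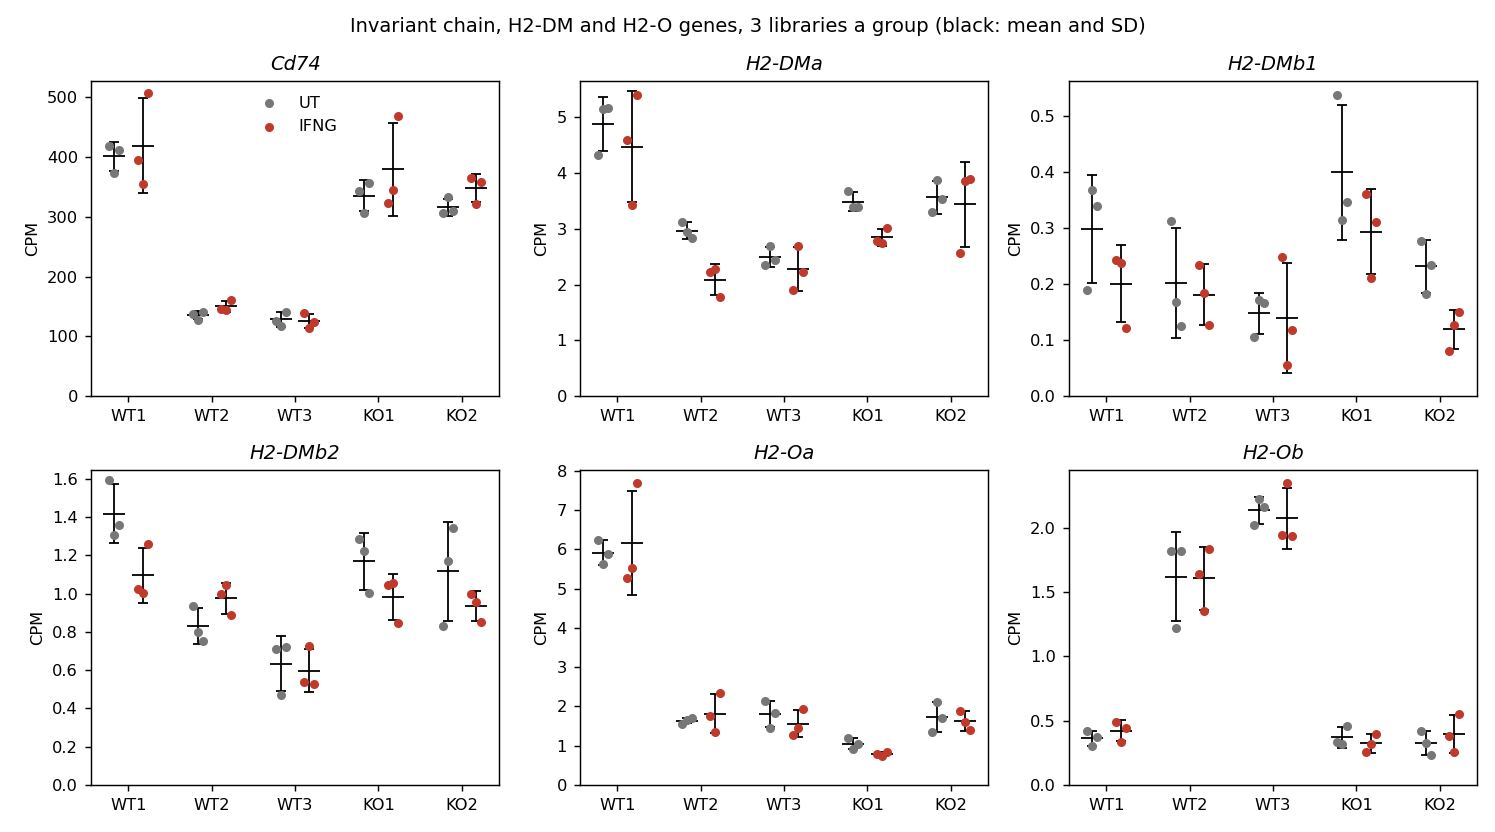
CPM of Cd74, the H2-DM genes and the H2-O genes in each of 3 libraries per clone and treatment (grey UT, red IFNG), with mean and SD as black bars on linear axes from 0. Cd74 was high in WT1, KO1 and KO2, H2-Oa in WT1 and H2-Ob in WT2 and WT3, while the 2 treatments of a clone lay close together.

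Levels can be compared between genes only per length of exon. Over the 10 groups of clone and treatment, the mean level was 89.2 to 297 CPM per kb for Cd74, 0.603 to 4.69 for H2-Oa, 1.27 to 2.97 for H2-DMa and 0.349 to 0.829 for H2-DMb2. It was 0.102 to 0.678 CPM per kb for H2-Ob, 0.0804 to 0.269 for H2-DMb1, 0 to 0.751 for H2-Ab1, 0 to 0.0535 for H2-Eb1, 0 to 0.0379 for Ciita and 0 to 0.0207 for H2-Aa. The invariant chain thus lay above every other gene of the set in all 10 groups, while H2-Aa and H2-Eb1, chains it accompanies, and Ciita never exceeded 0.0535. H2-Ab1 reached its highest values in WT2, above H2-DMb2 and H2-Ob there, and was at 0 in WT1 and WT3.

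Counted across the set, few of these genes passed the threshold for IFNG. Over the 5 clones 6 of the 10 passed the count filter and 1 was called, 0 higher and 1 lower, where 24.6% of all 14870 genes tested were called higher and 27.8% lower. H2-Ab1 entered this fit without a usable estimate, since 2 of the clones had no fragment. The median log2FC of the other 5 was -0.10, beside -0.01 for all genes. In WT2, 2 of 6 tested were called, Cd74 higher and H2-DMa lower, beside 17.4% and 17% of all genes.

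In the other clones edgeR called none: 0 of 5 tested in WT1 (all genes 11.8% higher and 9.47% lower), 0 of 5 in WT3 (18.6% and 17.5%), 0 of 4 in KO1 (16.2% and 13.2%) and 0 of 5 in KO2 (13.9% and 13.2%). At an unadjusted p under 0.05 there were 0, 0, 0 and 1 in these clones, the last being Cd74 in KO2, and DESeq2 called none. The responses of the clones could not be told apart for any of the genes. The test of differences among the 5 responses called 0 of 6 with edgeR, with DESeq2 and at an unadjusted p under 0.05, beside 3.68% of all genes. The interaction of genotype and IFNG likewise called 0 of 6 by all 3 counts, beside 0.681% of all genes with a larger log2FC in KO and 0.341% with a smaller one. The interaction estimate was 0.09 ± 0.10 for Cd74 (95% interval -0.10 to 0.28) and 0.05 ± 0.15 for H2-DMa (95% interval -0.24 to 0.34).

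The clones differed in level in all 6 tested genes under both treatments, H2-DMb2 least firmly, where 73.2% of all genes tested differed untreated and 69.3% with IFNG, so the count is nothing particular to these genes. Adjusted p-values untreated were 5.10e-16 for Cd74, 1.51e-11 for H2-Oa, 6.68e-10 for H2-Ob, 3.39e-06 for H2-DMa and 0.00183 for H2-DMb2. The untreated call of H2-DMb2 was lost without WT3 (adjusted p-value 0.0540). With IFNG, H2-DMb2 was at 0.0474, and this call was lost with DESeq2 (adjusted p-value 0.231), without the count filter (0.186) and in all but 8 of 20 settings that left out a library or clone, up to 0.845 without WT3. For Ciita, without the count filter, the clones differed after IFNG (adjusted p-value 0.00288) and not to the threshold before it (adjusted p-value 0.0553).

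Deletion of B2_Mm2.Dicer1 was compared with wild type by pooling the clones of a genotype. Untreated, 2 of 5 tested class II genes were called, both lower in KO, where 12.2% of all genes were higher and 14.4% lower. H2-Oa differed by a log2FC of -1.19 ± 0.40 (adjusted p-value 0.0368) and H2-Ob by -1.94 ± 0.47 (adjusted p-value 0.00617). With IFNG the same 2 of 5 were called, H2-Oa at -1.38 ± 0.43 (adjusted p-value 0.0293) and H2-Ob at -1.92 ± 0.43 (adjusted p-value 0.00399), where 10.9% of all genes were higher and 13% lower. Neither call reflects a level shared by the WT clones, because H2-Oa was high in WT1 and H2-Ob was high in WT2 and WT3.

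Genotype and clone cannot be told apart with this few clones. When the counts of each clone were summed so that a clone was 1 unit, no class II gene was called for genotype under either treatment. Without WT1, H2-Oa differed by -0.30 untreated (adjusted p-value 0.219), and Cd74, at 0.55 ± 0.31 (adjusted p-value 0.214) with all clones, became 1.31 (adjusted p-value 1.99e-10). H2-Oa untreated was also lost without KO1 and without KO2 (adjusted p-values 0.358 and 0.0567), and with IFNG without WT1 or KO1 (0.172 and 0.328). H2-Ob untreated was lost without WT3, KO1 or KO2 (0.0515, 0.0774 and 0.0614), and with IFNG without KO1 (0.0773). With IFNG and without WT2 or without WT3, H2-Ob did not pass the count filter and was not tested. WT1 also stood apart in Adgre1, the gene of a macrophage surface marker, at 10.2 ± 1.27 CPM (SD, n = 3) untreated against 42.2 to 283 in the other clones, and its part in these results was not tested.

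On the route that leads to Ciita, Irf1 and Irf8 rose strongly by 4 h, and the others reported here moved by at most 0.69 on the log2 scale. All 8 genes reported here passed the threshold over the 5 clones, 5 higher and 3 lower, where 24.6% of all genes were higher and 27.8% lower, and their median log2FC was 0.19 beside -0.01 for all genes. Irf1 rose by 5.11 ± 0.03 (adjusted p-value 9.24e-47), to 709 to 908 CPM as clone means from 17.9 to 24.98 CPM. Irf8, a myeloid partner of such factors, rose by 2.39 ± 0.03, and the kinase gene Jak2 by 0.69 ± 0.02. The receptor chains Ifngr1 and Ifngr2 fell by 0.53 and 0.43 on the log2 scale. After IFNG, mean Irf1 was 908, 736, 771, 709 and 782 CPM in WT1, WT2, WT3, KO1 and KO2. Mean Ciita was 0.0487, 0.102, 0.235, 0.362 and 0.292 CPM in the same order, close to the detection limit. Whether these levels are related was not tested. Ifngr2 was also called in the interaction of genotype and IFNG, at 0.30 ± 0.07 (adjusted p-value 0.0141), with a higher log2FC in KO. This call was lost with counts summed per clone (0.29, adjusted p-value 0.643), and without WT2, WT3 or KO1 (adjusted p-values 0.159, 0.148 and 0.502).

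The factors that hold CIITA at class II promoters were expressed and changed little. Of 7 genes, 3 were called higher and 3 lower, with a median log2FC of 0.03, where 24.6% of all genes were higher and 27.8% lower. Rfx5, the DNA-binding subunit of the RFX complex, rose by 0.57 ± 0.03 (adjusted p-value 6.89e-18), whereas its partner Rfxap changed by -0.15 ± 0.04. Of the NF-Y subunits that bind the Y box, Nfyb changed by 0.19 ± 0.02 and Nfya by -0.16 ± 0.02. The proteases and helpers that trim the invariant chain and peptides had a median log2FC of 0.04, with 3 of 7 higher and 2 lower beside the same shares of all genes. Ctss, a main protease of the late cuts of the invariant chain, rose by 0.21 ± 0.03. Sppl2a, which clears a remaining fragment, rose by 0.25 ± 0.03, while Ctsd changed by -0.18 ± 0.02 and Ctsl by -0.16 ± 0.02.

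The list of genes that restrain IFNG signalling or act on class II turnover had the largest median of the related lists. Of its 7 genes, 6 were called higher and 1 lower, with a median log2FC of 3.01, where 24.6% of all genes were higher and 27.8% lower. Socs1, the feedback inhibitor of JAK kinases, rose by 6.93 ± 0.09 (adjusted p-value 5.98e-35), and Socs3 by 5.30 ± 0.06. Cd83, which protects class II from degradation in dendritic cells, rose by 3.01 ± 0.08. The list also holds the ubiquitin ligase genes March1 and March8, of which March1 rose by 2.61 ± 0.18 and March8 changed by -0.17 ± 0.02. Of 5 genes for costimulation and adhesion, 4 were called higher and none lower, with Cd274, the ligand of PD-1, at 5.51 ± 0.04 and Cd40 at 3.07 ± 0.04. Of the 7 macrophage markers 1 was called higher, Fcgr1 at 2.23 ± 0.03, and 4 lower, among them Mertk at -1.09 ± 0.05 and Lyz2 at -0.17 ± 0.03. Of the dendritic cell markers 2 could be tested and Zbtb46 was lower (-0.38 ± 0.07), and no B or T cell marker passed the count filter.

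**Figure D3:**
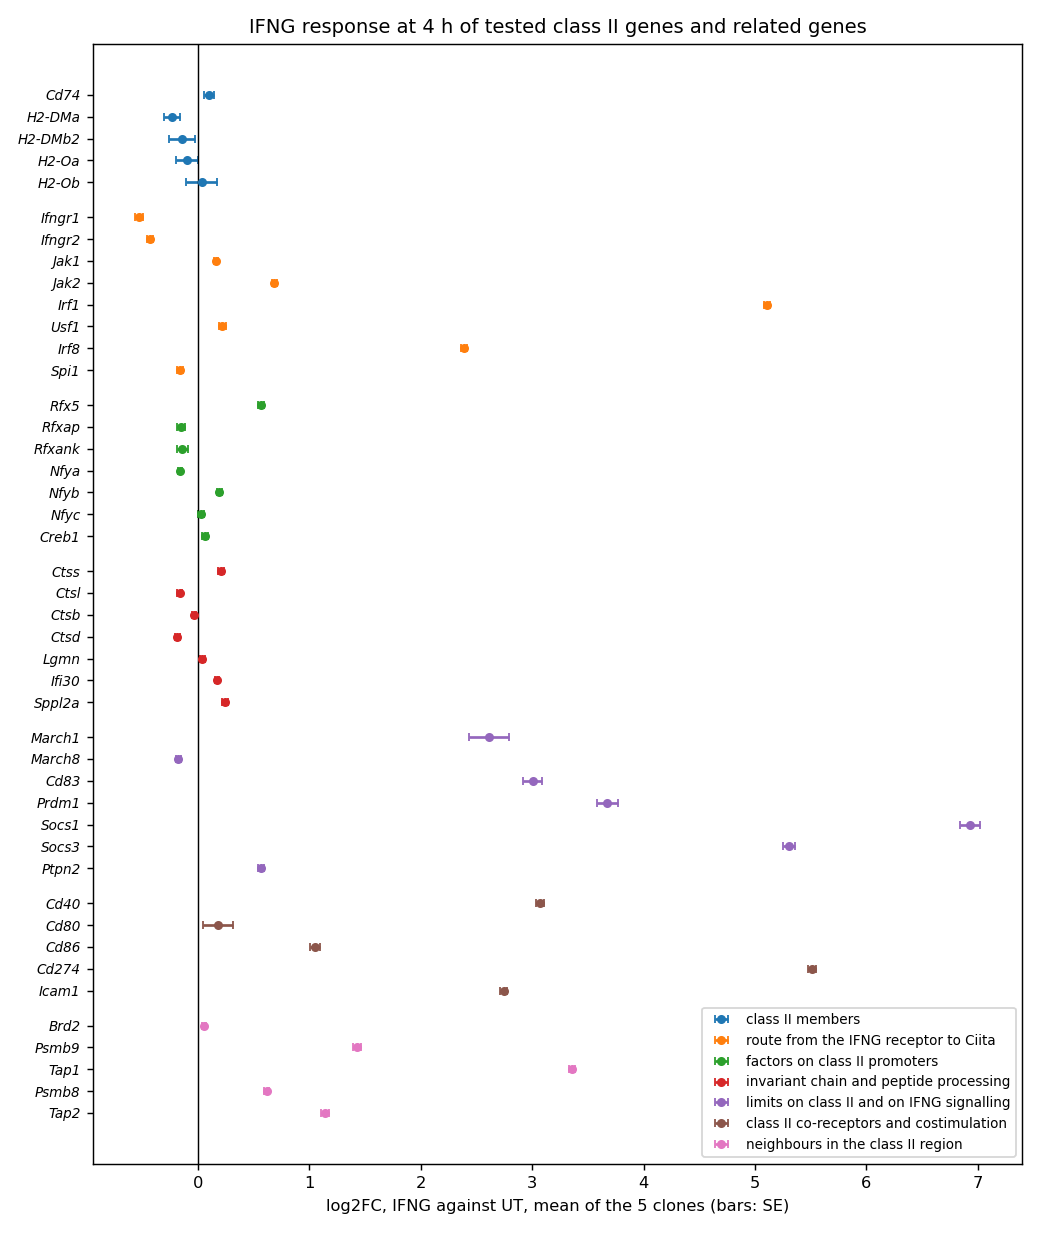
Log2FC of IFNG against UT as the mean of the 5 clones, with SE, for the class II genes with an estimate (blue) and the genes of the related lists and neighbours (other colours). The class II genes lie between -0.23 and 0.10, while Irf1 (5.11) and Socs1 (6.93) lie far to the right.

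Of the set, 8 genes stand together on chromosome 17, between 34092340 and 34316199, among genes with other roles. This stretch of 223860 bases holds 18 genes, of which 8 are class II genes and 10 are neighbours, 7 of them with fragments. The 4 neighbours of the class I pathway rose with IFNG. Tap1, a subunit of the peptide transporter, rose by 3.36 ± 0.03 (adjusted p-value 1.38e-40), Tap2 by 1.14 ± 0.03, and the immunoproteasome subunits Psmb9 and Psmb8 by 1.43 ± 0.03 and 0.62 ± 0.02. Brd2, a chromatin reader with no part in antigen presentation, changed by 0.06 ± 0.02 (adjusted p-value 0.00562). H2-DMb1 lies next to Psmb9, and the class II genes with an estimate on both sides of these 4 had none above 0.04 on the log2 scale. The neighbours Gm20496 and Gm15821 had too few fragments for a test.

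Tap1 and Psmb9 were also called in the interaction of genotype and IFNG, at 0.44 ± 0.06 (adjusted p-value 5.66e-05) and 0.31 ± 0.07 (adjusted p-value 0.0153), with a higher log2FC in KO. Both calls were lost with counts summed per clone, at 0.44 (adjusted p-value 0.112) and 0.31 (adjusted p-value 0.290). That of Tap1 held without any 1 clone (adjusted p-values up to 0.0237), and that of Psmb9 was lost without WT2, KO1 or KO2 (0.0767, 0.162 and 0.124). The RefSeq window of Psmb9 held TGATTGG at -10 and that of Tap1, which starts on the other strand of the same stretch, held it in reverse at -222. Both matches are the same bases, seen from overlapping windows. Psmb8 held TTCNNNGAA at -97. Brd2 held TTCNNNGAA at -145 and AACNNATG in reverse at -108. These matches describe letters in a window and say nothing of binding.

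**Figure D4:**
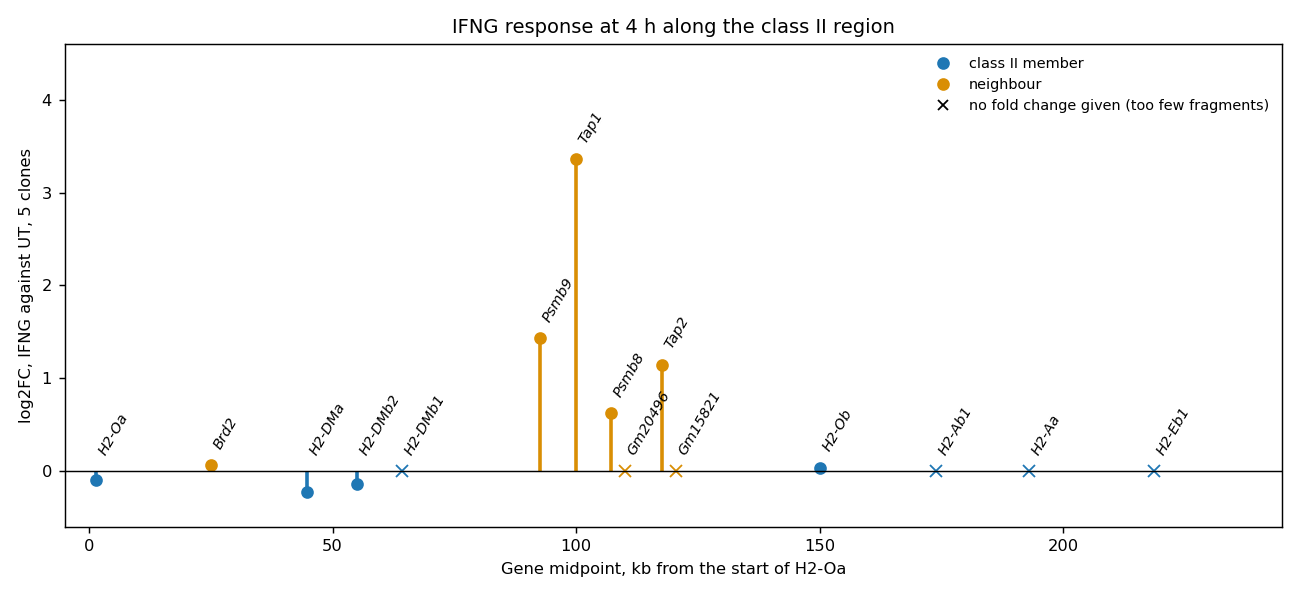
Log2FC of IFNG against UT over the 5 clones (y axis) for genes of the class II region by the distance of their midpoint from the start of H2-Oa in kb (x axis), class II genes in blue and neighbours in orange, with crosses for genes given no fold change. Tap1 (3.36), Psmb9 (1.43), Tap2 (1.14) and Psmb8 (0.62) stand above the class II genes on either side of them.

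The genes whose level followed Ciita or Cd74 most closely over the 10 group means were found by Pearson correlation of log2(CPM + 0.5) among 12987 genes that reached 1 CPM as the mean of any group. These points share clones and libraries and no p-value is given. For Ciita they were Gm44751 (r = 0.944), Slc25a45 (0.934), Crkl (0.929), Mpeg1 (0.914) and Ap4e1 (0.912). Mpeg1, a macrophage pore-forming protein gene, ran from 1218 CPM in untreated WT1 to 1721 CPM in treated KO1, the same groups in which Ciita was lowest and highest. For Cd74 the closest was Mir5107 (0.999), which overlaps Cd74 and shares its fragments, followed by Prpf6 (0.996), Ralgapa2 (0.996), Pkm (0.992) and Rpsa-ps10 (0.991). Ralgapa2 stood at 209 CPM in untreated WT1, 183 in KO1 and 161 in KO2, against 55.8 in WT2 and 54.6 in WT3.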

How the data were processed

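Polyadenylated RNA of J774A.1 clones was sequenced in 30 libraries. Per the labels and the study's methods, the authors used BBDuk for trimming and HISAT2 2.1.0 for alignment to mm10, kept uniquely aligned fragments, merged technical replicates with SAMtools 1.10 and counted exons with featureCounts 1.6.2 in reversely stranded mode, assigning a fragment to each gene it overlapped. The deposited table holds raw fragment counts for each gene. The file header names a Gencode vM18 annotation and the methods name RefSeq. Of 14 deposited tables, that of all 30 libraries was analysed, 5 were used to check that columns headed with the number of another WT clone hold counts identical to the tables named for WT2 and WT3, and the other 8 were not used. RNA input and adapters varied without being assigned to libraries, so batches could not be checked. No per-sample column was left without a group, and no library was a copy of another (chi-square per degree of freedom of replicate pairs 1.88 to 17.9).

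The tests here used edgeR 4.0.16 under R 4.3.3, with TMM factors, its default count filter (filterByExpr) and the two-sided quasi-likelihood test, on all genes, with Benjamini-Hochberg adjustment over all genes tested and a threshold of 0.05. Each comparison used its own libraries, and responses over the 5 clones and interactions used all 30. SE is the size of the log2FC over the root of its test statistic, and intervals are 1.96 SE. CPM values were computed here with TMM factors over all libraries. A count of 0 was given a limit of 3 fragments over a group. At a median depth of 23682133.5 fragments, genes under about 1 CPM carry few fragments and wide error. Exact permutation tests for 5 low genes, and counting intervals of Ciita, were added after the counts had been seen. The edgeR fit was tested on simulated counts for part of the comparisons, and DESeq2 and the exact tests were not. Alternatives were DESeq2 1.42.0, RLE factors, no count filter or at least 10 counts in every library, a single fit, counts summed per clone, and leaving out libraries or clones. Figures were drawn in matplotlib 3.10.9, and tables came from pandas 2.3.3, scipy 1.17.1 and numpy 2.4.6 (Python 3.11.15). Promoters are RefSeq windows of 250 bases before to 50 after a start.

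The 10 genes and the lists were chosen with earlier results of these data known. All 10 are named. From each list the text names the 2 called genes with the largest log2FC over the 5 clones in each direction, plus Irf1, Jak2, Rfx5, Ctss and Socs1, every neighbour with fragments, and the 5 genes most like Ciita and like Cd74. Irf8, March1, Cd83 and Adgre1 fell outside this rule and were named after their values were seen. A few genes of the lists are not reported here.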

Additional observations from a re-analysis of the deposited data

Results flagged for a closer look

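Of 31 groups of 6 or 9 libraries of 1 genotype and treatment examined gene by gene, 1 held a library set apart from the rest. Cd74 stood at 468 CPM in IFNG library 3 of KO1, while the 6 KO libraries with IFNG ran from 321 CPM with a median of 351, and the gap to the nearest library was 0.708 of the whole range, above the critical value of 0.625. The critical value is set to pick out about 1 group in 20 by chance when all libraries share 1 normal distribution. These groups pool clones that differ in level, so the chance rate here is not known. Cd74 passed the threshold in KO1 without IFNG library 1 of that clone (log2FC 0.31, adjusted p-value 0.0454), and did not with all 6 libraries (log2FC 0.21 ± 0.11, adjusted p-value 0.179). The setting without library 1 kept the flagged library 3. Left out 1 at a time, the 6 libraries of KO1 gave a log2FC of 0.023 to 0.31, with edgeR adjusted p-values of 0.0454 to 0.824. IFNG libraries 1 and 2 of KO1 stood at 324 and 345 CPM, and its untreated libraries at 307 to 357 CPM.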

How the results depend on the processing

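Of the counts of class II genes called, 153 settings stayed within 1.5 times the value reported and 29 did not. No paired analysis was possible because the columns carry no replicate numbers, and the planned replicate block was not run. In WT2 the count of 2 became 1 with DESeq2, 0 in a single fit over all libraries and 0 to 1 with a library left out. In KO1 and KO2 the count of 0 became 2 without the count filter (Ciita and Cd74 in both) and 0 to 1 with a library left out. Over the 5 clones the count of 1 became 3 without the count filter and with counts summed per clone (Ciita, Cd74 and H2-DMa in both), and 0 to 2 with a clone left out, 0 being the value without WT2. For KO against WT untreated, the count of 2 became 1 with at least 10 counts in every library, 0 with counts summed per clone and 0 to 4 with a clone left out. With IFNG the count of 2 became 1, 0 and 0 to 3 in the same order. The count of 6 that differed among clones with IFNG became 3 with at least 10 counts in every library, where only 3 could be tested. The cause of the other changes was not tested.

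A change of sign occurred only with a library or clone left out, and in none of these cases was the gene called in the fit reported. The log2FC then ranged from -0.095 to 0.16 for Cd74, -0.29 to 0.023 for H2-DMa and -0.13 to 0.16 for H2-Oa in WT1, from -0.049 to 0.34 for H2-Oa and -0.17 to 0.14 for H2-Ob in WT2, and from -0.089 to 0.053 for Cd74, -0.25 to 0.038 for H2-DMb2 and -0.13 to 0.022 for H2-Ob in WT3. In KO2 it ranged from -0.20 to 0.12 for H2-DMa, -0.20 to 0.11 for H2-Oa and -0.024 to 0.43 for H2-Ob. Over the 5 clones it ranged from -0.0066 to 0.10 for H2-Ob. For KO against WT it ranged from -0.17 to 0.37 untreated and -0.11 to 0.52 with IFNG for H2-DMa, and from -0.0073 to 0.65 and -0.12 to 0.31 for H2-DMb2. For the interaction it ranged from -0.064 to 0.15 for H2-DMa, -0.32 to 0.027 for H2-DMb2 and -0.24 to 0.17 for H2-Ob. Single genes kept their direction and side of the threshold in 896 settings, gained a call in 13 and lost one in 39.

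Among all genes, 3689 called for KO against WT untreated became 1 with counts summed per clone, 6472 without WT1 and 1674 without KO1. With IFNG 3258 became 1, 5992 and 1411 in the same order. The 150 of the interaction became 384 without the count filter, 2 with counts summed per clone, 570 without WT1, 35 without WT2, 73 without WT3 and 21 without KO1. The 547 that differed in response among clones became 919 without the count filter and 319 without WT3. Depth limits Ciita, H2-Aa, H2-Eb1 and H2-DMb1, which lay under the count filter in all 12 comparisons, and H2-Ab1, which lay under it in 6.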
